A study of Mus musculus with 16 samples.

Results

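Dct, Sh3gl2, Lrrc10b and Olfml2b are 4 of the 11811 genes in a table of transcript levels from the left ventricle (LV) of mice. They were taken as genes whose usual sites of expression, as background, lie outside the cardiomyocyte, which is not documented here for Lrrc10b. They were chosen by their measured levels, among the largest increases in TGAC8 over WT in which no TGAC8 library overlapped a WT library. The difference between genotypes that chose them is therefore described here and not tested. RNA was sequenced from 8 TGAC8 and 8 WT mice, 1 library per mouse. All mice were 3-month-old males of the C57BL/6 strain, and pieces of the LV free wall without the septum were taken. TGAC8 mice carry a cDNA of human ADCY8 under the murine α-myosin heavy chain promoter, which is active in cardiac myocytes. The colony was bred from a donated breeder pair, so the results concern a single transgenic line. WT mice lack the transgene and received no other treatment in the sources used here.

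ADCY8 is an adenylyl cyclase, an enzyme of the cell membrane that makes cAMP. Cyclic AMP activates protein kinase A, which phosphorylates the transcription factor CREB, and CREB acts at DNA sites called cAMP response elements. In melanocytes, cAMP raises the factor MITF, and MITF acts at a DNA site called the M-box in promoters of pigment genes. Dct encodes dopachrome tautomerase, an enzyme of melanin synthesis best known from melanocytes and the retinal pigment epithelium. Sh3gl2 encodes endophilin A1, a membrane-bending protein of synaptic vesicle endocytosis that is best known from neurons. Lrrc10b encodes a leucine-rich repeat protein named for its similarity to Lrrc10, a protein of heart muscle, and its own function is little described. Olfml2b encodes a secreted protein with an olfactomedin domain that is found in extracellular matrix.

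The 4 genes lie on different chromosomes of mm10. Dct spans chr14:118012790-118052246 on the minus strand and has up to 8 exons in its annotated transcripts. Sh3gl2 spans chr4:85205456-85389380 on the plus strand, with up to 12 exons. Lrrc10b spans chr19:10455371-10457447 on the minus strand, with 1 exon in its 1 transcript. Olfml2b spans chr1:170644423-170682789 on the plus strand, with up to 8 exons. The 250 bases before each RefSeq start (build GRCm38.p6, which is mm10) are shown because all 4 transcripts were higher in mice with a cAMP-producing transgene, and the letters of a cAMP response element or an M-box can be read in them directly. Each runs 5′ to 3′ on the gene's own strand and ends at the base before that RefSeq start. For Olfml2b the RefSeq start is 170644532, inside the span listed in the table, so the last 109 bases of its window overlap the listed span. Capitals mark the cAMP response element TGACGTCA, its shorter form TGACG, which reads CGTCA when it lies on the opposite strand. They also mark the M-box core CATGTG, which reads CACATG from the opposite strand.
Dct, chr14:118052247-118052496, minus strand: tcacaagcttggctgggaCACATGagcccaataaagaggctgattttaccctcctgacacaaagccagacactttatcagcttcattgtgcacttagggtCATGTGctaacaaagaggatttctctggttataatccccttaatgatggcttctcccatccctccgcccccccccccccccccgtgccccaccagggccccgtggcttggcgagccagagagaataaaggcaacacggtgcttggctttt
Sh3gl2, chr4:85205206-85205455, plus strand: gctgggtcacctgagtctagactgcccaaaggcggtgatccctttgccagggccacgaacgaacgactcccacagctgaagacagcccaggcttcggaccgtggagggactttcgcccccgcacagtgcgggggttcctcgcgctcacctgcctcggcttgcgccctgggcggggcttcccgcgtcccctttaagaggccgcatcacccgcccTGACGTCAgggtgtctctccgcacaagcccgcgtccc
Lrrc10b, chr19:10457448-10457697, minus strand: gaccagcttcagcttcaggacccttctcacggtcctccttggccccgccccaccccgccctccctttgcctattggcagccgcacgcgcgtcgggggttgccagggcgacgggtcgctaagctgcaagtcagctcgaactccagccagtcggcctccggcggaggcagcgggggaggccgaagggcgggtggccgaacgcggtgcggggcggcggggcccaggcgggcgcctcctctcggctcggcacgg
Olfml2b, chr1:170644282-170644531, plus strand: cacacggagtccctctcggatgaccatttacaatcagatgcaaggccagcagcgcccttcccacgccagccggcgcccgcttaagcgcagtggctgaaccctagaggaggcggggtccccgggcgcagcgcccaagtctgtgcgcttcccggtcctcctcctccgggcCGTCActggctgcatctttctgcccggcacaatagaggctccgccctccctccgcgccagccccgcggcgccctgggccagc

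The letters differed among the 4 windows. The whole cAMP response element TGACGTCA stood in the Sh3gl2 window, 37 to 30 bases before the start, and 1.55% of 32851 RefSeq promoter windows of this length held it. The shorter form was found in that same stretch of Sh3gl2 and once in Olfml2b, 82 to 78 bases before the RefSeq start and thus within the listed span, and 17.8% of all windows held it. The M-box core was read at 2 places in the Dct window, 232 to 227 and 150 to 145 bases before the start, against 12.3% of windows with at least 1 match. None of these letters was in the Lrrc10b window. The E-box CACGTG (6.02% of windows) and the TATA box core TATAAA (12.4%) were in none of the 4, searched on both strands. CCAAT, which 33.8% of windows held, occurred once each in Dct and Lrrc10b and is not capitalized. A match is a stretch of letters, and binding was not measured.

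The transgene, listed as ADCY8HS, fitted the genotype of each library. Its level was 503 ± 62.2 FPKM (SD, n = 8) in TGAC8, from 411 to 602, while 7 WT libraries had a listed level of 0 and WT library 2 had 0.345 FPKM. FPKM are fragments scaled to transcript length and to the mapped reads of the library, so levels can be compared between genes. Summed over all listed genes they ran from 314283 to 374087 in TGAC8 and from 356854 to 407506 in WT. The 11544 genes that averaged 0.5 FPKM or more across all libraries were compared with limma on log2(FPKM + 0.1). At an adjusted p of 0.05, 25.6% of them were called, 20.9% higher and 4.65% lower in TGAC8. The median of all log2 fold changes was 0.12 on the deposited scale and 0.01 after geometric scaling, which centers each library on the median of its gene-wise ratios to a geometric mean library. Geometric scaling gave 1124 higher (9.74%) and 1244 lower genes (10.8%) in place of 2417 and 537, so values for other genes are given with both scales where the call differed.

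Dct was measured in every library. In TGAC8 its lowest level was 8.18 FPKM, its median 9.23 and its highest 12.5, and in WT the lowest was 0.863, the median 1.12 and the highest 1.82. The genotypes did not overlap, and the lowest TGAC8 library stood 4.48 times above the highest WT library. The means were 9.71 ± 1.44 and 1.24 ± 0.360 FPKM (SD, n = 8 each), a ratio of 7.84 and a log2 fold change of 2.90. In order of level among all tested genes, Dct moved from the 18.4th percentile in WT to the 73.5th in TGAC8. Thus this pigment enzyme was a low but detected transcript of the WT LV and an above-median transcript of the TGAC8 LV.

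Sh3gl2 was near absence in WT. The levels in TGAC8 were 2.92 FPKM at the lowest, 3.67 at the median and 4.91 at the highest, and those in WT were 0.0844, 0.332 and 0.420. No library overlapped the other genotype, and the gap between the closest libraries was 6.96-fold. Mean levels were 3.89 ± 0.827 against 0.300 ± 0.117 FPKM (SD, n = 8 each), a ratio of 13.0 and a log2 fold change of 3.36. The transcript of endophilin A1 thereby stood at the 47.7th percentile of tested genes in TGAC8 and at the 0.286th in WT. Tested genes averaged 0.5 FPKM or more over all libraries, which Sh3gl2 reached only through TGAC8. Its place at the bottom in WT therefore follows from this filter.

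Lrrc10b had the lowest WT level of the 4 genes. Its 8 TGAC8 libraries lay between 1.81 and 3.68 FPKM with a median of 2.33, and its 8 WT libraries between 0.0318 and 0.234 with a median of 0.122. The genotypes were again apart, by 7.74-fold at the closest. The means were 2.50 ± 0.693 and 0.119 ± 0.0716 FPKM (SD, n = 8 each), a ratio of 21.0 and a log2 fold change of 3.60. Even so, it remained below the median gene in TGAC8, at the 33.7th percentile.

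Olfml2b had the highest level of the 4 in both genotypes. It ranged in TGAC8 from 11.2 to 19.3 FPKM with a median of 16.2, and in WT from 1.35 to 3.57 with a median of 2.48. The closest libraries differed by 3.13-fold, with no overlap. Mean levels were 15.9 ± 2.59 and 2.35 ± 0.733 FPKM (SD, n = 8 each), a ratio of 6.76 and a log2 fold change of 2.75. The transcript was at the 82.9th percentile of tested genes in TGAC8 and at the 35.6th in WT. In bulk tissue, more cells of a type cannot be told apart from more RNA per cell for any of these transcripts.

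**Figure D1:**
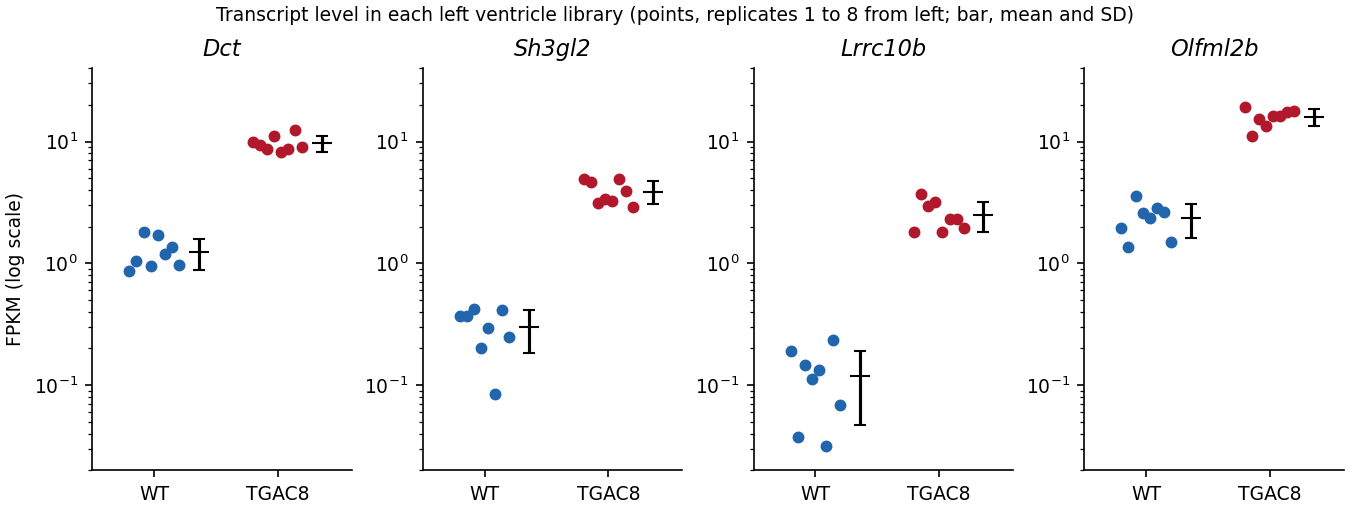
Level of Dct, Sh3gl2, Lrrc10b and Olfml2b (y axis, FPKM on a log scale) in each of the 8 WT and 8 TGAC8 libraries, with the mean and SD beside the points. All TGAC8 points lie above all WT points in each panel, and the WT points of Sh3gl2 and Lrrc10b lie below 0.5 FPKM while those of Dct and Olfml2b do not.

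Only 2 of the 4 genes went from near absence to presence. Defining off as a mean under 0.5 FPKM in one genotype and on as at least 1 FPKM in the other, with no overlap between libraries, 21 genes were off in WT and on in TGAC8, and Sh3gl2 and Lrrc10b were among them. Dct and Olfml2b were expressed in all 8 WT libraries and were raised from a measured level. With off set at under 0.25 FPKM the count was 11, and Lrrc10b alone of the 4 remained. Among all tested genes, 4.79% had every TGAC8 library above every WT library and 1.13% had every one below. In order of log2 fold change among the 553 separated increases, with ADCY8HS first, Lrrc10b was the 7th, Sh3gl2 the 10th, Dct the 11th and Olfml2b the 12th. This order holds for the pseudocount of 0.1, and with a pseudocount of 1 the order of the 4 turned around, at 2.35 for Olfml2b, 2.26 for Dct, 1.90 for Sh3gl2 and 1.63 for Lrrc10b. Rad51b (3.56) and Gm31210 (3.39) stood between Lrrc10b and Sh3gl2 in log2 fold change, Gm35041 (3.60) stood just above Lrrc10b, and Gm35922 (2.66) and Grin2c (2.66) came just after Olfml2b.

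The low WT values rested on few reads. For genes of the table whose FPKM are whole multiples of a common step, the step was taken as the worth of 1 read, which gave read numbers for Dct and Lrrc10b within 0.05 of a whole number in every library. Dct then had 235 to 413 reads per library in TGAC8 and 25 to 56 in WT. Lrrc10b had 52 to 114 reads in TGAC8 and 1 to 7 in WT, 27 over the 8 WT libraries together against 580 over the 8 TGAC8 libraries. The order of the WT libraries is thus loosely known for Lrrc10b, while its lowest TGAC8 library had 52 reads against 7 in its highest WT library. No common step was found for Sh3gl2 or Olfml2b, and the depth behind their values is unknown. The worth of a read differed by 1.28-fold between the libraries with the largest and the smallest, which is small beside the 3.13-fold or larger gaps between genotypes.

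Relative variation between mice, which was not tested, was smaller in TGAC8 than in WT for each of the 4 genes. The coefficient of variation was 14.8% in TGAC8 and 29.1% in WT for Dct, 21.3% and 38.9% for Sh3gl2, 27.7% and 60.2% for Lrrc10b, and 16.3% and 31.2% for Olfml2b. Against all tested genes in TGAC8, the coefficients stood at the 51.9th percentile for Dct, the 74.0th for Sh3gl2, the 85.6th for Lrrc10b and the 58.0th for Olfml2b. In WT they stood between the 87.6th for Dct and the 97.8th for Lrrc10b. Few reads by themselves widen relative variation. Per WT library Lrrc10b had 1 to 7 reads and Dct 25 to 56, against 52 to 114 and 235 to 413 in TGAC8. The percentiles also set these genes against genes of every level. Sh3gl2 and Lrrc10b reached the filter of 0.5 FPKM only through TGAC8. Their WT percentiles thus set them against genes that are nearly all higher in WT. The part of read number in the difference was not tested.

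The question whether mice with more transgene had more of these transcripts was asked within TGAC8 alone, since the genotypes differ in both. ADCY8HS varied between the 8 libraries by 1.46-fold from lowest to highest. Mean levels of the 4 genes were small beside it, 1.93% of its FPKM for Dct, 0.772% for Sh3gl2, 0.497% for Lrrc10b and 3.15% for Olfml2b. Over the 8 TGAC8 libraries, Pearson's r with ADCY8HS on the log2 scale was 0.512 for Lrrc10b (Spearman's rho 0.31), -0.45 for Olfml2b (rho -0.381), -0.222 for Sh3gl2 (rho -0.0952) and -0.127 for Dct (rho -0.119). None of the 4 relations passed an exact 2-sided permutation test, with raw p of 0.198, 0.264, 0.587 and 0.769 for r and 0.462, 0.36, 0.84 and 0.793 for rho. The smallest p adjusted over the 4 was 0.528 for r and 0.84 for rho. Without TGAC8 libraries 3 and 6, the farthest from the median of ADCY8HS, r was 0.6 for Lrrc10b, -0.686 for Olfml2b, 0.515 for Sh3gl2 and -0.258 for Dct. The value for Sh3gl2 thus changed sign without those libraries. After geometric scaling r was 0.717 for Lrrc10b (adjusted permutation p = 0.192), -0.497 for Olfml2b, -0.015 for Sh3gl2 and 0.178 for Dct, which changed sign, and again none passed. With 8 libraries, an r of 0.512 in either direction was not distinguishable from none.

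**Figure D2:**
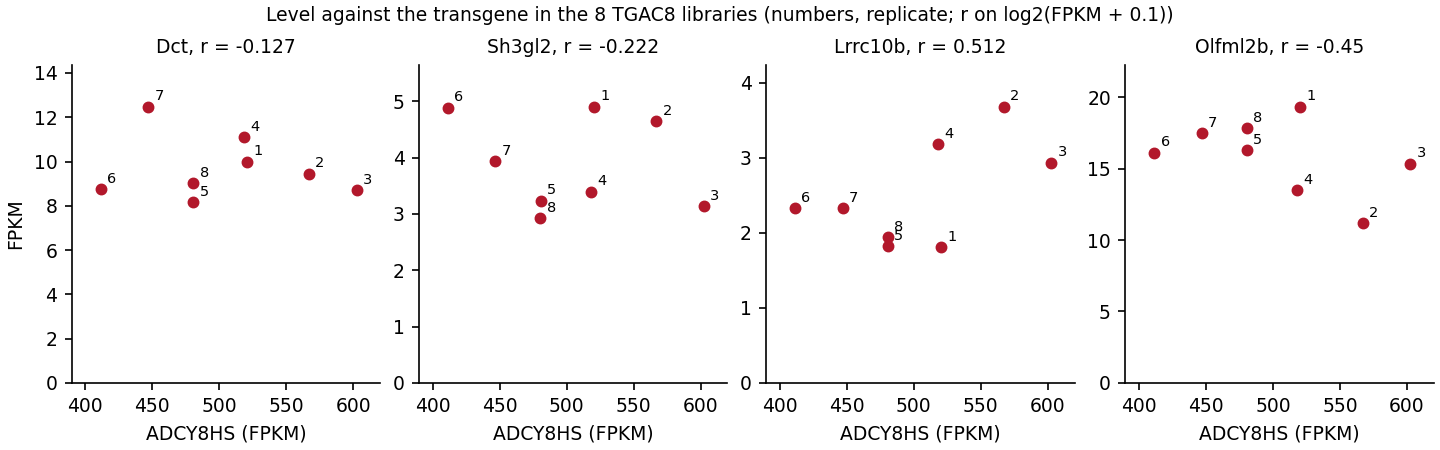
Level of each gene (y axis, FPKM) against the level of ADCY8HS (x axis, FPKM) in the 8 TGAC8 libraries, each point numbered by replicate. The points rise with ADCY8HS for Lrrc10b (r = 0.512) and fall for Olfml2b (r = -0.45), and neither relation passed the test.

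Among themselves, 1 pair of the 4 genes moved oppositely between TGAC8 mice. Lrrc10b was highest in TGAC8 library 2 (3.68 FPKM), in which Olfml2b was lowest (11.2 FPKM), and lowest in library 1 (1.81 FPKM), in which Olfml2b was highest (19.3 FPKM). Over the 8 TGAC8 libraries r was -0.897 (exact permutation p = 0.00126, adjusted p = 0.0152 over 12 pairs and genotypes), and rho was -0.929 (exact p = 0.00223, adjusted p = 0.0268). Without libraries 2 and 4, r was -0.692 with an exact p of 0.124, and after geometric scaling r was -0.79 with an adjusted permutation p of 0.159. In WT the same pair had r of 0.393 (rho 0.238, exact permutation p = 0.335 and 0.582). Lrrc10b had only 1 to 7 reads per WT library, so a relation there could be missed. The difference between the genotypes in this relation was not tested. The other 5 pairs in TGAC8 had r between -0.0868 and 0.208, and the 6 pairs in WT between -0.126 and 0.633, with no adjusted p under 0.41.

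**Figure D3:**
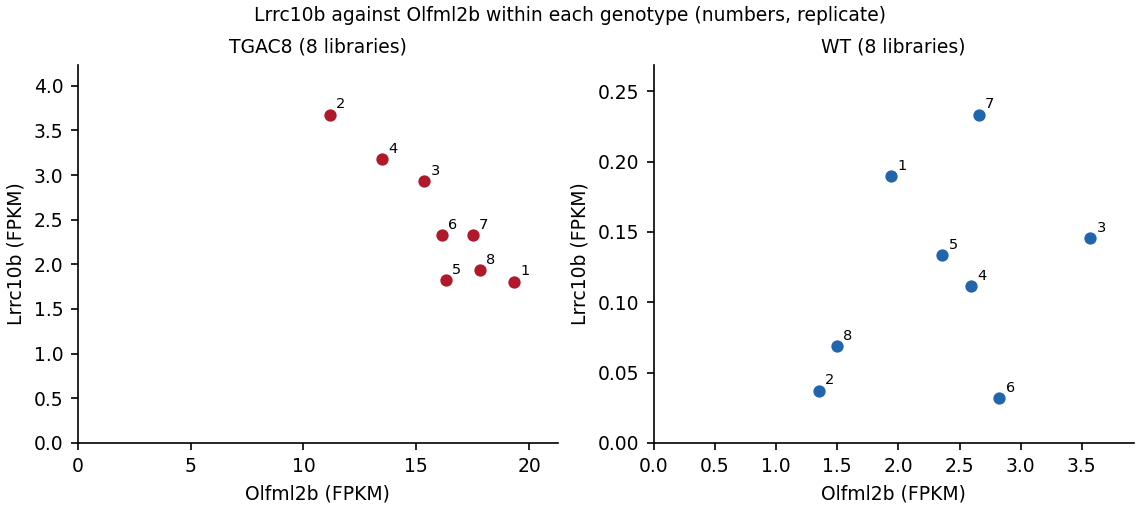
Lrrc10b (y axis, FPKM) against Olfml2b (x axis, FPKM) in the 8 TGAC8 and the 8 WT libraries, each point numbered by replicate, with different axis ranges in each panel. In TGAC8 the points fall from library 2 (3.68 FPKM of Lrrc10b) to library 1 (1.81 FPKM). In WT, where Lrrc10b had 1 to 7 reads per library, no such order was seen.

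Markers of other cell types moved with genotype and are given beside the 4 genes. Of all tested genes, 20.9% were higher and 4.65% lower in TGAC8, or 9.74% and 10.8% after geometric scaling. Fibroblast markers were higher in TGAC8 in 11 of 12 cases, on both scales, with a median log2 fold change of 0.72. Postn, a matrix protein of activated fibroblasts, had a log2 fold change of 1.19 ± 0.199 (SE, adjusted p = 0.000293), and the collagen Col3a1 one of 1.06 ± 0.127 (adjusted p = 1.14e-05). The summed level of these markers was 498.9 to 819.3 FPKM in TGAC8 and 401.2 to 457.2 in WT. Macrophage markers were higher in 10 of 12 cases (8 after geometric scaling), and their summed level was 148.6 to 215.8 FPKM against 109.1 to 147.5. Of the cardiomyocyte markers, 1 of 12, Ryr2, was higher and 5 were lower, 9 after geometric scaling. None of 12 endothelial markers passed the test. The part of these shifts in the levels of the 4 genes was not tested between genotypes.

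Within a genotype, the relation to the marker levels could be tested. In TGAC8, Lrrc10b was lower where the mean log2 level of the fibroblast markers was higher (r = -0.872, exact permutation p = 0.00268, adjusted p = 0.0429 over 16 relations). Spearman's rho was -0.881 (exact p = 0.00724, adjusted p = 0.0579). Without TGAC8 libraries 2 and 5 the r was -0.769 (exact p = 0.0722), and after geometric scaling it was -0.76 with an adjusted permutation p of 0.225. Olfml2b had r of 0.688 with the same markers in TGAC8 (rho 0.762, exact permutation p = 0.0631 and 0.0368), which did not pass after adjustment (0.253 and 0.118). None of the other 14 relations passed for r, and none of the 16 for rho. In WT, Dct had r of 0.783 with the cardiomyocyte markers (exact permutation p = 0.0163, adjusted p = 0.131) and rho of 0.881 with the fibroblast markers (exact p = 0.00724, adjusted p = 0.0579; r = 0.589). The relations of Lrrc10b and Olfml2b to the cardiomyocyte markers in TGAC8, which did not pass, changed sign with the scaling, from -0.637 to 0.644 and from 0.589 to -0.478.

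For Dct, the genes of the pigment cell were examined. Of 15 melanocyte markers 3 were in the table, and the others, among them Tyr, Tyrp1, Pmel, Mlana and Sox10, were not analysed here. Mitf, the melanocyte master factor that is also made in other cells, was lower in TGAC8, at 8.12 ± 0.350 FPKM against 9.81 ± 0.759 (SD, n = 8 each), a log2 fold change of -0.27 ± 0.050 (SE, adjusted p = 0.000904). Kit, a growth factor receptor, stood at 0.655 against 0.675 FPKM, and Ednrb, an endothelin receptor, at 2.56 against 2.48 FPKM, and neither passed the test (adjusted p = 0.801 and 0.782). The summed level of the 3 was 10.6 to 12.4 FPKM in TGAC8 and 11.6 to 14.2 in WT. Of 14 tested genes of melanosome formation and transport, 4 were higher and 0 lower, with a median log2 fold change of 0.26, beside 20.9% and 4.65% of all tested genes. After geometric scaling 2 were higher and 0 lower, beside 9.74% and 10.8%. Myo5a, the motor that carries melanosomes, had a log2 fold change of 0.51 ± 0.103 (SE, adjusted p = 0.0015).

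Factors that act upstream of melanocyte genes, from the cAMP pathway and from outside it, were read next. Of 18 tested genes, 9 were higher in TGAC8 and 0 lower, with a median log2 fold change of 0.23, beside the same 20.9% and 4.65% of all tested genes. After geometric scaling 5 were higher and 0 lower, beside 9.74% and 10.8%. The 9 include general factors such as Tfe3 and Usf1, so the count is not one of the cAMP pathway alone. Sik1, a kinase that restrains CREB coactivators and is itself a CREB target, rose to 10.6 ± 3.12 FPKM from 5.29 ± 0.999 (SD, n = 8 each), or 0.97 ± 0.143 in log2 fold change (SE, adjusted p = 9.56e-05). Crem, a CREB relative with cAMP-inducible forms, rose to 2.97 ± 0.488 FPKM from 1.76 ± 0.327 (log2 fold change 0.74, adjusted p = 0.000376). The genotypes did not overlap for either gene. Creb3l1, a factor held in the endoplasmic reticulum, rose by 0.82 in log2 fold change (adjusted p = 0.000777), and the value for Creb1 itself was 0.09 (adjusted p = 0.41). All of these log2 fold changes lay below the 2.90 of Dct, which was itself chosen for a large increase.

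Some cells of the atrium express Dct in mice, so atrial genes were read in each library. Myl7, the atrial myosin light chain, reached 33.8 FPKM in TGAC8 library 1 and 34.5 FPKM in WT library 6, and was as low as 0 in other libraries of each genotype. Dct was 9.99 FPKM in the former library and 1.19 in the latter, both inside the range of the other mice of their genotype. The summed level of 7 atrial markers overlapped between genotypes, at 25.2 to 176.7 FPKM in TGAC8 and 67.0 to 226.5 in WT. Nppa alone averaged 58.4 and 95.9 FPKM. Of the 7, 2 were higher and 0 lower in TGAC8, beside 20.9% and 4.65% of all tested genes. These were Tbx5 (log2 fold change 0.49, adjusted p = 0.000515) and Nr2f2 (0.24, adjusted p = 0.0372). Nr2f2 lost its call after geometric scaling (adjusted p = 0.248). In WT, Tbx5 (5.42 ± 0.678 FPKM, SD) and Nr2f2 (2.64 ± 0.273) varied little between libraries, whereas Myl7 (9.57 ± 13.6) varied widely. The calls of Tbx5 and Nr2f2 are therefore not read as a change in atrial tissue. The part of the atrial markers in the level of Dct was not tested.

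For Sh3gl2, the closest relatives and the machinery it works with were examined. Sh3gl1, endophilin A2, had a mean of 2.87 ± 0.521 FPKM in TGAC8 and 2.21 ± 0.411 in WT (SD, n = 8 each), a log2 fold change of 0.36 ± 0.129 (SE, adjusted p = 0.0469), and this call was lost after geometric scaling (adjusted p = 0.223). Sh3glb1, a relative of mitochondrial and autophagic membranes, stood at 76.2 against 81.8 FPKM (adjusted p = 0.0715), and was called lower only after geometric scaling (adjusted p = 5.76e-05). Sh3glb2 stood at 10.7 against 9.94 FPKM (adjusted p = 0.35). In TGAC8 the level of Sh3gl2, 3.89 FPKM, was thereby above that of Sh3gl1 and below those of Sh3glb1 and Sh3glb2, and in WT, at 0.300 FPKM, it was below all 3.

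Of 28 tested genes of clathrin-mediated endocytosis, 10 were higher and 1 lower, beside 20.9% and 4.65% of all tested genes, whereas 1 was higher and 3 were lower after geometric scaling, beside 9.74% and 10.8%. Epn1, the adaptor epsin 1, was the gene called higher on both scales, at 43.2 ± 2.53 against 28.1 ± 1.58 FPKM (SD, n = 8 each), or 0.62 ± 0.045 in log2 fold change (SE, adjusted p = 3.06e-08). Synj2, a lipid phosphatase that endophilins bind, was lower, at 5.93 against 7.30 FPKM (adjusted p = 0.0488). Of 17 neuron markers, Uchl1 and Stmn2 were in the table and the other 15 were not analysed here. Uchl1, a ubiquitin hydrolase abundant in neurons, was higher, at 3.84 ± 1.09 against 2.08 ± 0.529 FPKM (log2 fold change 0.84, adjusted p = 0.000905), and Stmn2 stood at 1.73 against 1.59 FPKM (adjusted p = 0.617). None of 3 tested markers of striatal neurons and none of 4 of Schwann cells passed the test.

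For Lrrc10b, the relative after which it is named went the other way. Lrrc10, a sarcomere-associated protein, fell to 25.3 ± 2.29 FPKM in TGAC8 from 32.8 ± 5.18 in WT (SD, n = 8 each), a log2 fold change of -0.36 ± 0.085 (SE, adjusted p = 0.00483), and fell on both scales. Lrrc10 therefore remained the more abundant of the pair in both genotypes. Relatives of Olfml2b were read in the same way. Of 6 tested genes with an olfactomedin domain, 3 were higher and 0 lower, beside 20.9% and 4.65% of all tested genes. These counts became 2 and 1 after geometric scaling, beside 9.74% and 10.8%. Olfml3, a secreted matrix protein, had a log2 fold change of 0.87 ± 0.149 (SE, adjusted p = 0.00037), Olfm1 one of 0.65 ± 0.157 (adjusted p = 0.00593) and Olfml1 one of 0.62 ± 0.216 (adjusted p = 0.0418). After geometric scaling Olfml1 lost its call (adjusted p = 0.0929), and Adgrl2, an adhesion receptor, was called lower (log2 fold change -0.19, adjusted p = 0.0275). Olfml2a, the nearest relative by name, stood at 1.32 ± 0.272 against 1.13 ± 0.332 FPKM and did not pass the test (adjusted p = 0.328).

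**Figure D4:**
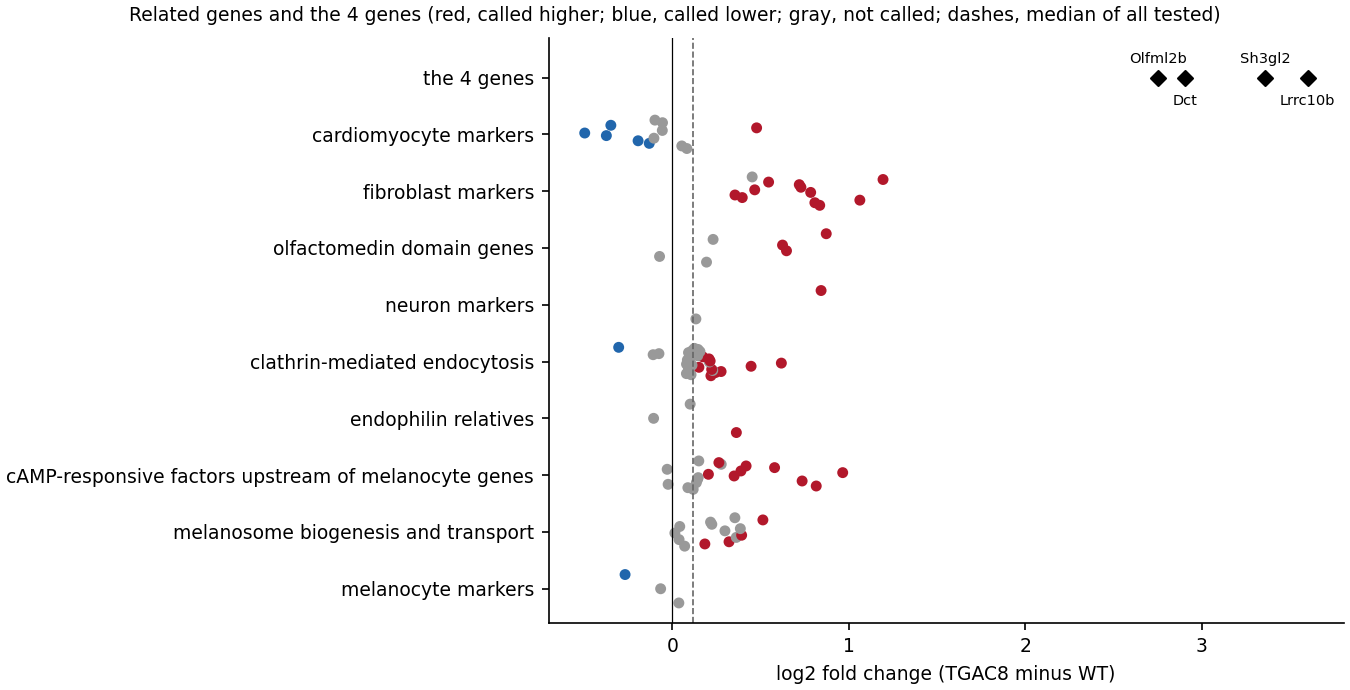
Log2 fold change of TGAC8 over WT (x axis) for the tested genes of 9 lists and for Dct, Sh3gl2, Lrrc10b and Olfml2b (diamonds), on the deposited scale, with the median of all tested genes (0.12) as a dashed line. All genes of the 9 lists drawn, which are named on the y axis, lie below 1.2, and the 4 genes lie between 2.75 and 3.60. The 4 genes were chosen for large increases, so their place to the right is no separate result. Of the lists not drawn, Krt18 (2.08), Ms4a7 (1.47) and Tnni2 (1.45) lie above 1.2.

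The genes listed on either side of each of the 4 on the chromosome were also read, whereas the 4 themselves were chosen for large increases. These listed genes lay 2.19 to 12835 kb away. The 5 listed genes on either side, 40 in all, had log2 fold changes between -0.36 and 0.59 with a median of 0.12, equal to that of all genes. Of these, 8 were higher and 2 lower in TGAC8 (background 20.9% and 4.65%). Next to Lrrc10b, Syt7, a calcium sensor of membrane fusion, lay 2.19 kb away on the opposite strand and rose to 5.07 ± 0.650 FPKM from 3.39 ± 0.309 (SD, n = 8 each), a log2 fold change of 0.56 ± 0.081 (SE, adjusted p = 7.45e-05) with no overlap between genotypes. Sdhaf2, on its other side, was lower at 6.06 against 6.95 FPKM (adjusted p = 0.0418). Next to Dct, Gpc6, a cell-surface proteoglycan, lay 33.3 kb away and had a log2 fold change of 0.44 ± 0.096 (SE, adjusted p = 0.00263), and Tgds on its other side stood at 1.53 against 1.66 FPKM (adjusted p = 0.56). Neither listed gene next to Sh3gl2, Cntln (73.5 kb away) or Rraga (1186 kb away), passed the test (adjusted p = 0.571 and 0.556). Of the neighbors of Olfml2b, Ddr2, Atf6, Fcgr2b and Fcgr3 were higher, and of these Ddr2 is also a fibroblast marker and Fcgr2b and Fcgr3 are immunoglobulin receptors of immune cells. The other called genes were Abcc4 (higher), 430 kb from Dct, and Dennd4c (higher) and Ttc39b (lower), 1359 and 1881 kb from Sh3gl2. After geometric scaling Fcgr2b and Abcc4 lost their calls (adjusted p = 0.0897 and 0.165). Gm10076, 12331 kb from Dct, and Rps6, 1465 kb from Sh3gl2, were then called lower (adjusted p = 0.0247 and 0.00142).

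**Figure D5:**
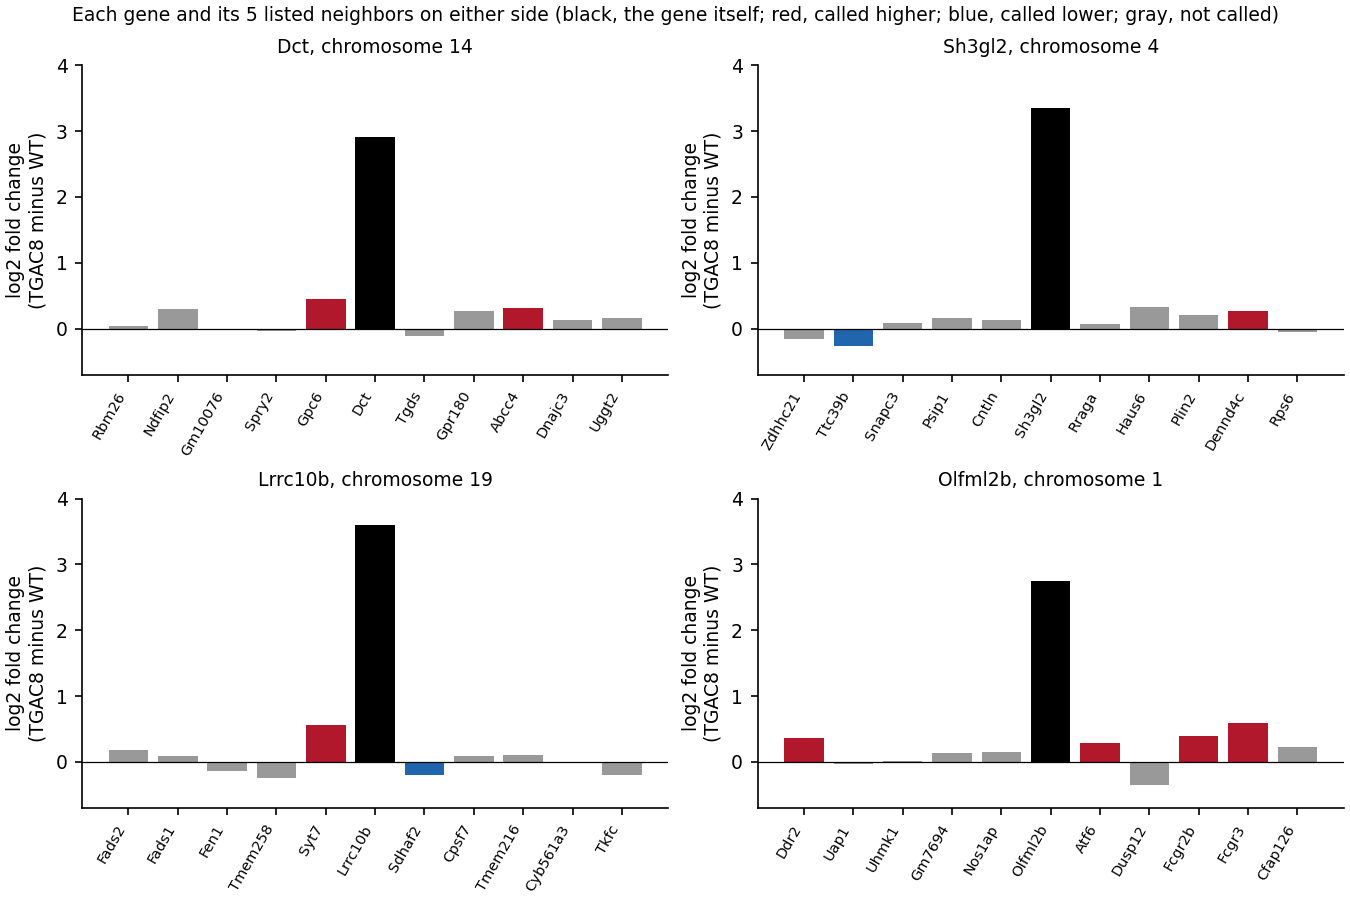
Log2 fold change of TGAC8 over WT (y axis) for Dct, Sh3gl2, Lrrc10b and Olfml2b (black) and the 5 listed genes on either side of each in chromosome order. The 40 neighbors lie between -0.36 and 0.59 on the same axis on which the 4 genes, chosen for large increases, reach 2.75 to 3.60.

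Reads of other genes could in part be counted in these transcripts. The annotated transcripts of Lrrc10b and Olfml2b held no stretch of at least 75 bases with 95% identity to a transcript of another gene. For Dct 1 of 4 annotated transcripts did, a form with a retained intron that matched 80 other genes over at most 205 bases. For Sh3gl2 1 of 5 did, and it matched 12 other genes over at most 89 bases. An antisense gene, 4930435M08Rik, lies within Dct, and a pseudogene, Gm12413, within Sh3gl2, and the sources used here do not say whether counting was by strand.

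The genes that varied most like each of the 4 between mice were found after the mean of each genotype was removed, among 10209 genes averaging 1 FPKM or more, as a description over 16 libraries that share the FPKM scaling. For Dct these were 9130011E15Rik (r = 0.858), Topbp1 (r = 0.844) and Wdr12 (r = 0.80). For Sh3gl2 they were Zfp809 (r = 0.760), Pth1r (r = 0.749) and Gm40523 (r = 0.734). For Lrrc10b they were Tbx2 (r = 0.765), Rad51b (r = 0.717) and Cacna1c (r = 0.711). For Olfml2b they were Dennd2a (r = 0.887), Otud6b (r = 0.876) and Zfp74 (r = 0.842). Each r was picked from the top of 10209 values, so it is high by selection, and none was tested. For Lrrc10b the WT libraries held only 1 to 7 reads each. Of these 12 genes, Rad51b was itself a separated increase, at 2.18 FPKM in TGAC8 against 0.0956 in WT, and the log2 fold changes of the other 11 lay between -0.04 and 0.59.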

How the data were processed

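RNA of the LV was sequenced by the authors from stranded libraries of total RNA, read from a single end, and aligned to mm10 plus the cDNA of human ADCY8. The submitters' processing notes name TopHat2 2.1.1, Cufflinks 2.1.1 and Cuffdiff. The deposited values used here are FPKM per library, computed by the authors with Cufflinks. Which annotation was counted, and whether by strand, was not given in the sources used here. Columns of the authors' own Cuffdiff comparison (FPKM per genotype, fold changes, p-values) were not used.

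Libraries were grouped by their labels, with 8 mice per genotype. Log2(FPKM + 0.1) of genes averaging 0.5 FPKM or more was compared between genotypes by limma 3.58.1 (R 4.3.3) with trended variances, 2-sided, with Benjamini-Hochberg adjustment. This scale understates the change of low genes. The fit was tested on simulated data. Correlations within a genotype were computed in Python 3.11.15 on the same log2 scale and tested by exact permutation over all 40320 orderings. FPKM hold no depth, so precision rests on the spread between mice, except where whole reads could be recovered for Dct and Lrrc10b. Transcripts were compared with blastn 2.17.0 in GENCODE vM21, and promoters came from RefSeq, where 11221 symbols of the table matched. A listed locus can span overlapping genes, so gaps to neighbors are to the listed locus.

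The members and lists were chosen with earlier results of these data known. Genes named were the 4, ADCY8HS, their paralogs, melanocyte and neuron markers, up to 4 called genes per list by fold change, 5 neighbors on either side, the 3 genes most alike in pattern and the separated increases next in order. Alternatives were other pseudocounts, other filters, geometric scaling, the library number as a block, libraries left out, untransformed FPKM in correlations and a lower limit for off. Results for some single genes are left out.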

Additional observations from a re-analysis of the deposited data

Results flagged for a closer look

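ADCY8HS, the human transgene, was listed at 0.345 FPKM in WT library 2 and at 0 in the other 7 WT libraries, so this library stood apart from its group. With the other 7 at 0, any level above 0 would have been flagged. The value is small beside the 411 to 602 FPKM of the TGAC8 libraries. In that library Dct was at 1.05, Sh3gl2 at 0.369, Lrrc10b at 0.0372 and Olfml2b at 1.35 FPKM, and the value of Olfml2b was the lowest of the 8 WT libraries. Without it, 2615 genes were called in place of 2954, and no other library was left out for this count.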

How the results depend on the processing

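Of 141 alternative values for 39 results, 125 kept their direction and their side of the threshold or moved by less than the spread between mice, 7 moved further, 2 lost their call and 7 changed sign. Most of the alternatives are log2 fold changes of the 4 genes, which were chosen for large increases without overlap. Their steadiness is therefore no separate result. With a pseudocount of 1 the log2 fold changes were 2.26 for Dct, 1.90 for Sh3gl2, 1.63 for Lrrc10b and 2.35 for Olfml2b, and with 0.01 that of Lrrc10b was 4.47, a gene whose WT mean is close to the pseudocount of 0.1. Leaving out each library in turn gave 2.84 to 2.99 for Dct, 3.21 to 3.42 for Sh3gl2, 3.50 to 3.70 for Lrrc10b and 2.65 to 2.84 for Olfml2b. With off set at under 0.25 FPKM, 11 genes were off in WT and on in TGAC8 in place of 21, and 2 the reverse in place of 5. After geometric scaling, r in TGAC8 was -0.79 for Lrrc10b with Olfml2b and -0.76 for Lrrc10b with the fibroblast markers, and both lost their call. The 7 sign changes were in correlations that passed on neither setting. With geometric scaling r became 0.178 for Dct with ADCY8HS, -0.182 for Dct with Olfml2b, 0.644 for Lrrc10b and -0.478 for Olfml2b with the cardiomyocyte markers in TGAC8, and 0.417 for Sh3gl2 with these markers in WT. With untransformed FPKM r became 0.0023 for Sh3gl2 with Olfml2b in WT, and without TGAC8 libraries 3 and 6 it became 0.515 for Sh3gl2 with ADCY8HS. The cause was not tested.

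Labels give both genotypes library numbers 1 to 8 and do not say what the number stands for. Same-numbered libraries did not deviate together (correlations from -0.062 to 0.0067), so they were not paired in the main fit. Whether they share a litter or a batch is not known. With the library number as a replicate block 2444 genes were called in place of 2954, and the log2 fold changes of the 4 genes were the same by construction, 2.90, 3.36, 3.60 and 2.75. Depth limits the WT levels of Lrrc10b, at 1 to 7 reads per library.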
